A study of Mus musculus with 32 samples.

Results

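The response of gene expression to corticosterone (cort), the main glucocorticoid of mice, was compared between liver and epididymal white adipose tissue (eWAT). The comparison used the 16 libraries, of 32 in the series, that came from mice fed the normal-protein diet (NPD), and it took no measured value to choose them. There were 4 libraries in each of 4 groups, liver and eWAT of mice given vehicle (veh) and liver and eWAT of mice given cort. All groups were male C57BL/6 mice at 10 weeks of age that received veh or cort in the drinking water for 7 days on a diet with 20% of its energy as protein. The series also holds the same 4 groups on a high-protein diet (HPD, 60% of energy as protein), which entered only as a second set of libraries. The labels do not say whether a liver and an eWAT library came from the same mouse, or that replicates were separate mice, so p-values measure the spread between these samples. The frozen tissue was whole, so each library holds RNA of every cell type in it. The question was which genes changed with cort alike in both tissues, in 1 tissue, or in opposite directions.

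Glucocorticoids bind the glucocorticoid receptor, a transcription factor that moves to the nucleus and raises or lowers the transcription of its target genes, often as a partner of factors that are particular to a cell type. In liver they are known for raising glucose output and acute phase proteins, in adipose tissue for changing the storage and release of lipid, and in immune cells for lowering inflammatory genes. The enzyme encoded by Hsd11b1 regenerates active hormone inside cells of both tissues.

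QuantSeq libraries read transcripts from their 3′ end, so a count does not grow with the length of the transcript, and levels are given in CPM, the count of a gene relative to the library total after scaling with edgeR's TMM factors. Total counts were 8933307 to 15478670 in liver and 11690560 to 16468871 in eWAT. Genes that define hepatocytes summed to 125412 to 195104 CPM in liver and 40.3 to 74.4 CPM in eWAT, and those of adipocytes to 24046 to 34423 CPM in eWAT and 60.4 to 135 CPM in liver, as the tissue labels say. Liver cort replicate 3 stood apart by its skeletal muscle RNA, with 5 marker genes at a sum of 625 CPM against 2.21 to 8.32 CPM in the other liver cort libraries. Muscle markers were also higher in the veh eWAT libraries (46.3 to 148 CPM) than in the cort ones (7.55 to 17.3 CPM). Without liver cort replicate 3, 674 genes in place of 866 were called for the tissue difference given next, 200 in place of 247 moved alike and 50 in place of 69 in opposite directions.

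Of 10625 genes with enough counts in both tissues, cort raised 751 (7.07%) and lowered 603 (5.68%) in liver, and it raised 535 (5.04%) and lowered 560 (5.27%) in eWAT, at a Benjamini-Hochberg adjusted p-value under 0.05 from edgeR's quasi-likelihood test. A further 822 genes were measured in liver alone and 3152 in eWAT alone and were not compared. The responses of 866 genes (8.15%) differed between the tissues in a test of the difference itself, 506 (4.76%) more positive in liver and 360 (3.39%) more negative in liver, and an unadjusted p under 0.05 was reached by 2326 genes in that test. In both tissues, 316 genes were called, which is 23.3% of the liver calls and 28.9% of the eWAT calls. Of these, 247 (78.2%) moved in the same direction, 124 of them higher and 123 lower with cort. The other 69 moved in opposite directions, 43 higher in liver and lower in eWAT and 26 lower in liver and higher in eWAT. Of all 10625 genes, called or not, 55.6% had log2 fold changes of the same sign in both tissues. In 387 genes the response was called in liver, not in eWAT, and the difference was called too (255 higher and 132 lower in liver), and 275 genes were such in eWAT (136 higher and 139 lower). The remaining 651 calls of liver and 504 of eWAT could not be assigned, because the gene was not called in the other tissue and the difference was not called either. With library totals and no TMM factors, 36.9% of the eWAT calls were higher with cort, against 48.9% with them. The median absolute log2 fold change over all genes was 0.27 in liver and 0.24 in eWAT.

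**Figure D1:**
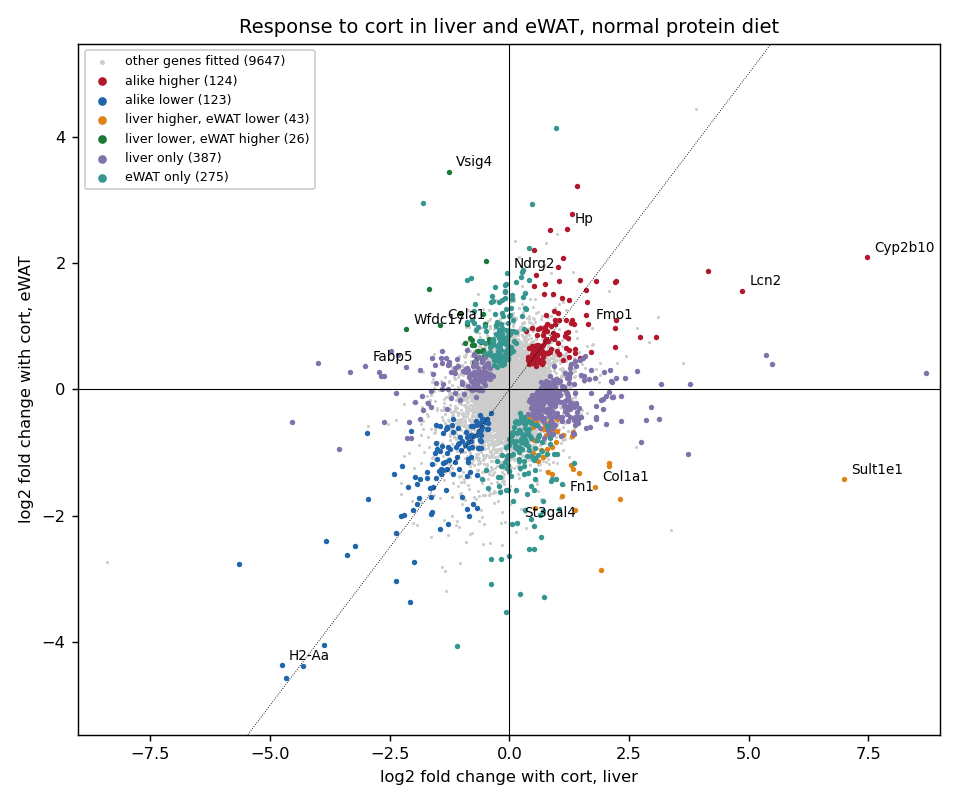
Log2 fold change with cort in liver (horizontal) and in eWAT (vertical) on the NPD, 1 point per gene, over 10625 genes. Colours mark the 6 classes with their sizes in the key, grey the other genes, and the dotted line equal responses. The MHC class II genes around H2-Aa lie on the dotted line at the lower left, Hp lies above it, and Fn1, Col1a1 and Sult1e1 lie at the lower right, where liver rose and eWAT fell.

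The largest shared decrease was that of the MHC class II genes, whose products present peptides to helper T cells on the surface of antigen-presenting cells. The 5 leading genes of the shared decrease all belonged to this system. H2-Aa, H2-Ab1 and H2-Eb1 encode class II chains, Cd74 the invariant chain that guides class II molecules, and H2-DMb1 a chain of the peptide exchange factor. H2-Aa (ENSMUSG00000036594, chromosome 17 from 34282744 to 34287823) was at 82.9, 138, 83.3 and 108 CPM in the 4 veh liver libraries and at 4.21, 1.54, 3.19 and 5.92 CPM in the cort liver libraries. In eWAT its levels were 408, 411, 331 and 345 CPM with veh and 19.1, 19.6, 11.1 and 23 CPM with cort. The highest cort library thus lay below the lowest veh library in both tissues. H2-Aa fell with a log2 fold change of -4.75 (SE 0.31, edgeR quasi-likelihood adjusted p = 3.1e-08) in liver and -4.36 (SE 0.28, edgeR quasi-likelihood adjusted p = 2.5e-08) in eWAT. The responses differed by -0.39 (SE 0.38), a difference that was not called and whose 95% interval was -1.22 to 0.44. H2-Eb1 (ENSMUSG00000060586, chromosome 17 from 34305867 to 34316674), which encodes a class II beta chain, fell with log2 fold changes of -4.66 (SE 0.33) in liver and -4.56 (SE 0.27) in eWAT, on the same log2 scale. H2-Ab1 (ENSMUSG00000073421, chromosome 17 from 34257689 to 34269419), which pairs with H2-Aa, fell from 51.8 ± 24.5 CPM (SD, n = 4) to 2.59 ± 0.617 CPM (SD, n = 4) in liver and from 275 ± 19.6 CPM (SD, n = 4) to 13.2 ± 2.11 CPM (SD, n = 4) in eWAT. Cd74 fell with log2 fold changes of -3.87 (SE 0.31) in liver and -4.05 (SE 0.28) in eWAT. H2-DMb1 fell with log2 fold changes of -3.22 (SE 0.37) and -2.48 (SE 0.28), from a lower level, 5.53 ± 1.51 CPM (SD, n = 4) in veh liver and 18.9 ± 3.23 CPM (SD, n = 4) in veh eWAT. In all 5 genes the veh and cort libraries did not overlap in either tissue, which was a condition for being named. It was so in 98 of the 123 genes of the shared decrease and in 25 of the 8387 genes called in no test. The leading genes of every class met this condition in each tissue where they were called. Calls in both tissues favour genes without overlap, so such counts of the classes add no support of their own. The MHC genes form a family of related sequences, and how reads on shared stretches were counted is not given in the sources used here.

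Since the class II genes moved together, their promoters are shown for H2-Aa and H2-Eb1, as the bases from 150 to 1 before the RefSeq start on GRCm38.p6, read along the gene. Capitals mark the letters CTGATTGG, a Y box, which is a part of the class II promoter module known from textbooks and lies 51 to 44 bases before the start of H2-Aa and 62 to 55 before that of H2-Eb1. The H2-Aa stretch is at chr17:34287824-34287973 on the minus strand, and that of H2-Eb1 at chr17:34305717-34305866 on the plus strand. H2-Ab1 had no row in the promoter table.
H2-Aa: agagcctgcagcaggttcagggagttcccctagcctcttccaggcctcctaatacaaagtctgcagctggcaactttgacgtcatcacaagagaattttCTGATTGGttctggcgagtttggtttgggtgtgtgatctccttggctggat
H2-Eb1: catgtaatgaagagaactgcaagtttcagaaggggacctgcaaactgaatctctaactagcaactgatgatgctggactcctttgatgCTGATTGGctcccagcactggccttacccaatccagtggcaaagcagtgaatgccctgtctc
Promoter sequence was found for 8305 of the 10625 genes. On either strand of the window from 250 bases before to 50 after the start, CTGATTGG was held by 9 of 94 genes of the shared decrease (9.57%), 9 of 89 genes of the shared increase (10.1%), 6.37% of all genes compared and 4.10% of the 32851 promoters in the table. The match in these letters is a description of the sequence, not a measured binding site.

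The antigen presentation list, which holds the class II genes above, had members that fell with cort in both tissues. Of the class I pathway, H2-K1, H2-D1, B2m, Tap1 and Tapbp fell in eWAT and were not called in liver, but only the difference of H2-K1 was called among these 5, and the eWAT call of Tapbp was absent from 5 of the 16 refits with 1 library removed (edgeR quasi-likelihood adjusted p up to 0.077, without eWAT cort replicate 4). Of the 17 measured members of the whole list, 10 fell in liver, against 5.68% of all genes, and 15 in eWAT, against 5.27%. In both tissues 10 fell, against 1.16% of all genes, and 0 members rose in either. Those that fell in both were the class II genes named above, H2-DMa, Ctss, and the immunoproteasome genes Psmb8, Psmb9 and Psmb10. The liver call of Psmb9 was absent from 6 of the 16 refits with 1 library removed. The median log2 fold change was -0.67 in liver and -1.34 in eWAT, against -0.00 and -0.01 over all genes. H2-K1, a class I heavy chain, was at 698 ± 181 CPM (SD, n = 4) in veh and 302 ± 23.1 CPM (SD, n = 4) in cort eWAT, a log2 fold change of -1.21 (SE 0.15), and its value in liver was -0.16 (SE 0.15). This difference of 1.05 (SE 0.21) was called (edgeR quasi-likelihood adjusted p = 0.0027). Psmb8, a subunit of the immunoproteasome that cuts peptides for class I molecules, fell with log2 fold changes of -1.88 in eWAT and -0.67 in liver with a called difference of 1.21 (SE 0.28), and its liver call was absent from 5 of the 16 refits with 1 library removed (edgeR quasi-likelihood adjusted p up to 0.099, without liver veh replicate 2). Ctss, the protease that degrades the invariant chain, fell more in liver (-1.54, SE 0.18) than in eWAT (-0.57, SE 0.17), and its difference was called as well. Its eWAT call was absent from 7 of the 16 refits with 1 library removed (edgeR quasi-likelihood adjusted p up to 0.1, without eWAT veh replicate 3). The count of genes that fell in both tissues lay between 8 and 10 when each library was left out.

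Among interferon-stimulated genes, which carry out the antiviral response, called members fell in both tissues. Of 26 measured members, 7 fell in liver and 16 in eWAT, all 7 of the former in both tissues, and 0 rose in either. Of all genes, 5.68% fell in liver, 5.27% in eWAT and 1.16% in both. The median log2 fold change of the list was -0.44 in liver and -1.20 in eWAT. Gbp3, a guanylate-binding protein, fell with log2 fold changes of -1.63 (SE 0.32) in liver and -1.70 (SE 0.29) in eWAT. Iigp1, an immunity-related GTPase, fell with log2 fold changes of -0.89 (SE 0.17) in liver and -1.90 (SE 0.19) in eWAT, and its difference of 1.01 (SE 0.25) was 1 of the 3 called in the list. Isg15, a ubiquitin-like modifier, fell with log2 fold changes of -0.82 and -1.31, and its liver call was absent from 5 of the 16 refits with 1 library removed (edgeR quasi-likelihood adjusted p up to 0.076, without liver cort replicate 3). The number of members lower in liver was 4 without liver veh replicate 2 and 4 without liver cort replicate 3, and the number of called differences was 1 in 6 of the fits without a library, among them that without eWAT veh replicate 3. Markers of T and NK cells summed to 2.69 to 3.78 CPM in veh and 0 to 1.01 CPM in cort liver, and to 0.871 to 8.36 CPM in veh and 0.594 to 2.34 CPM in cort eWAT. The B cell markers summed to 3.64 to 7.07 CPM in veh and 0.927 to 2.26 CPM in cort liver, and to 107 to 396 and 111 to 252 CPM in eWAT. In libraries of whole tissue, fewer cells of a type and less RNA per cell cannot be told apart, and the part of these cells in the decrease was not tested.

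Among the genes that rose in both tissues were acute phase proteins, which the liver secretes into blood during inflammation, and enzymes that modify foreign compounds. Serpina3n (ENSMUSG00000021091, chromosome 12 from 104406729 to 104414329), a secreted serine protease inhibitor, was at 396, 449, 351 and 275 CPM in veh liver and 1081, 1033, 1227 and 1136 CPM in cort liver. In eWAT it was at 217, 192, 243 and 251 CPM with veh and 515, 503, 553 and 465 CPM with cort. The groups did not overlap in either tissue, as the rule of naming required and as was so in 94 of the 124 genes of the shared increase. The log2 fold changes of Serpina3n were 1.61 (SE 0.14, edgeR quasi-likelihood adjusted p = 3.9e-08) in liver and 1.17 (SE 0.14, edgeR quasi-likelihood adjusted p = 3.6e-06) in eWAT. The difference, 0.43 (SE 0.19), was not called, with an interval of 0.01 to 0.86. Hp (ENSMUSG00000031722, chromosome 8 from 109575128 to 109579172), haptoglobin, which binds free hemoglobin, also rose in both tissues but more in eWAT. Its levels were 869, 641, 759 and 959 CPM in veh and 4237, 5592, 4979.8 and 3952 CPM in cort eWAT, and 1882, 2283, 1745 and 1778 CPM in veh and 4743, 4591, 4263 and 4121 CPM in cort liver. The log2 fold change of Hp was 2.54 (SE 0.16) in eWAT and 1.20 (SE 0.15) in liver, a difference of -1.33 (SE 0.21, edgeR quasi-likelihood adjusted p = 2.5e-04). With cort, the libraries of both tissues thus overlapped in their scaled Hp level. With veh, every liver library lay above every eWAT library. Both statements depend on the TMM factors, which were 0.670 to 0.785 in liver and 1.27 to 1.39 in eWAT. Fmo1 (ENSMUSG00000040181, chromosome 1 from 162829561 to 162866610), a flavin-containing monooxygenase, rose from 55.6 ± 8.4 CPM (SD, n = 4) to 174 ± 5.51 CPM (SD, n = 4) in liver and from 67.8 ± 3.81 CPM (SD, n = 4) to 139 ± 11.2 CPM (SD, n = 4) in eWAT, and the rise was larger in liver by 0.61 (SE 0.16, edgeR quasi-likelihood adjusted p = 0.021). Sult1a1, a phenol sulfotransferase, rose by 1.10 (SE 0.14) in liver and 1.44 (SE 0.15) in eWAT. Pole4, a small subunit of DNA polymerase epsilon, rose by 1.35 (SE 0.14) and 1.03 (SE 0.13). Serpina3n and Sult1a1 have close relatives in the genome, and how their shared reads were counted is not given in the sources used here.

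The promoter of Serpina3n is shown as that of the only gene among 89 of the shared increase whose window held the letters GNACANNNTGTNC, a palindrome of the kind the glucocorticoid receptor binds. It is the stretch from 150 to 1 bases before the RefSeq start at chr12:104406558-104406707 of GRCm38.p6, plus strand, and capitals mark the palindrome, 78 to 66 bases before the start.
Serpina3n: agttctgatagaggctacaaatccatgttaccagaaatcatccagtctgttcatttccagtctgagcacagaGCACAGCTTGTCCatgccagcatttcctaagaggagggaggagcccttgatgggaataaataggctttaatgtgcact
The palindrome stood in 0.313% of the promoters of all genes compared and in 0.475% of the whole table, in the same window and on either strand. The shorter site TGTTCT, 1 arm of the consensus, stood in 14.6% of the genes of the shared increase, 21.3% of those of the shared decrease, and 14.4% of all genes compared.

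Over the acute phase list, 6 of 13 measured members rose in liver and 6 in eWAT, 5 of them in both, and 1 fell in liver. Of all genes, 7.07% rose and 5.68% fell in liver, 5.04% rose in eWAT, and 1.17% rose in both. The median log2 fold change of the list was 0.73 in liver and 0.48 in eWAT. Lcn2, lipocalin 2, which binds bacterial siderophores, was at 7.18, 10.9, 10.2 and 4.91 CPM in veh and 226, 362, 225 and 143 CPM in cort liver, and at 4.83, 12.2, 4.4 and 2.97 CPM in veh and 14.3, 23.6, 17.3 and 16.5 CPM in cort eWAT. It rose by 4.86 (SE 0.45) in liver and 1.56 (SE 0.41) in eWAT, and the response was larger in liver by 3.30 (SE 0.58, edgeR quasi-likelihood adjusted p = 0.0034). The eWAT call of Lcn2 was absent from 4 of the 16 refits with 1 library removed (edgeR quasi-likelihood adjusted p up to 0.078, without eWAT veh replicate 3). Orm3, an orosomucoid, rose by 2.74 (SE 0.21) in liver and 0.82 (SE 0.18) in eWAT, again with a called difference, whereas Serpina3m, a relative of Serpina3n, rose more in eWAT (2.77, SE 0.24) than in liver (1.30, SE 0.21). Steap4, a metalloreductase, was the member that fell in liver (-1.48, SE 0.38), a call that was absent from 3 of the 16 refits with 1 library removed (edgeR quasi-likelihood adjusted p up to 0.062, without liver veh replicate 2).

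The 26 measured genes of a list of textbook receptor targets moved in both directions. Of them, 5 rose and 2 fell in liver, 6 rose and 3 fell in eWAT, and 4 moved alike, with median log2 fold changes of 0.07 and 0.05. The shares over all genes were 7.07% higher and 5.68% lower in liver and 5.04% higher and 5.27% lower in eWAT. Without eWAT veh replicate 3, the number that rose in eWAT was 3 and the number that fell was 5, and the count of genes moving alike was 2 without eWAT cort replicate 2. Fkbp5, the co-chaperone that feeds back on the receptor, was at 31.1, 77.4, 30.5 and 83.8 CPM in veh and 319.8, 236, 287 and 193 CPM in cort liver. In eWAT its values were 43.8, 52.6, 28 and 46.7 CPM with veh and 139.6, 135, 163 and 123 CPM with cort, so that all cort libraries lay above all veh libraries in both tissues. Its log2 fold change was 2.22 (SE 0.32) in liver and 1.71 (SE 0.31) in eWAT. Mt1, a metallothionein that binds zinc, rose in eWAT by 2.31 (SE 0.53), with a liver value of 0.76 (SE 0.51) that did not pass the test. Rgs2, a regulator of G protein signalling, and Sgk1, a kinase, were called lower in eWAT (-1.38, SE 0.23, and -0.85, SE 0.18). Per1, a clock gene and direct target, was at 0.09 in liver and 0.02 in eWAT and was called in neither. The receptor gene Nr3c1 (ENSMUSG00000024431, chromosome 18 from 39410545 to 39519421) was at 60.8 ± 8.28 CPM (SD, n = 4) in veh and 48.6 ± 7.28 CPM (SD, n = 4) in cort liver, and at 98 ± 13.3 CPM (SD, n = 4) in veh and 78.5 ± 6.28 CPM (SD, n = 4) in cort eWAT. Its log2 fold change was -0.32 (SE 0.14) in liver and -0.32 (SE 0.13) in eWAT, called in neither, and the interval of the difference was -0.41 to 0.41.

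**Figure D2:**
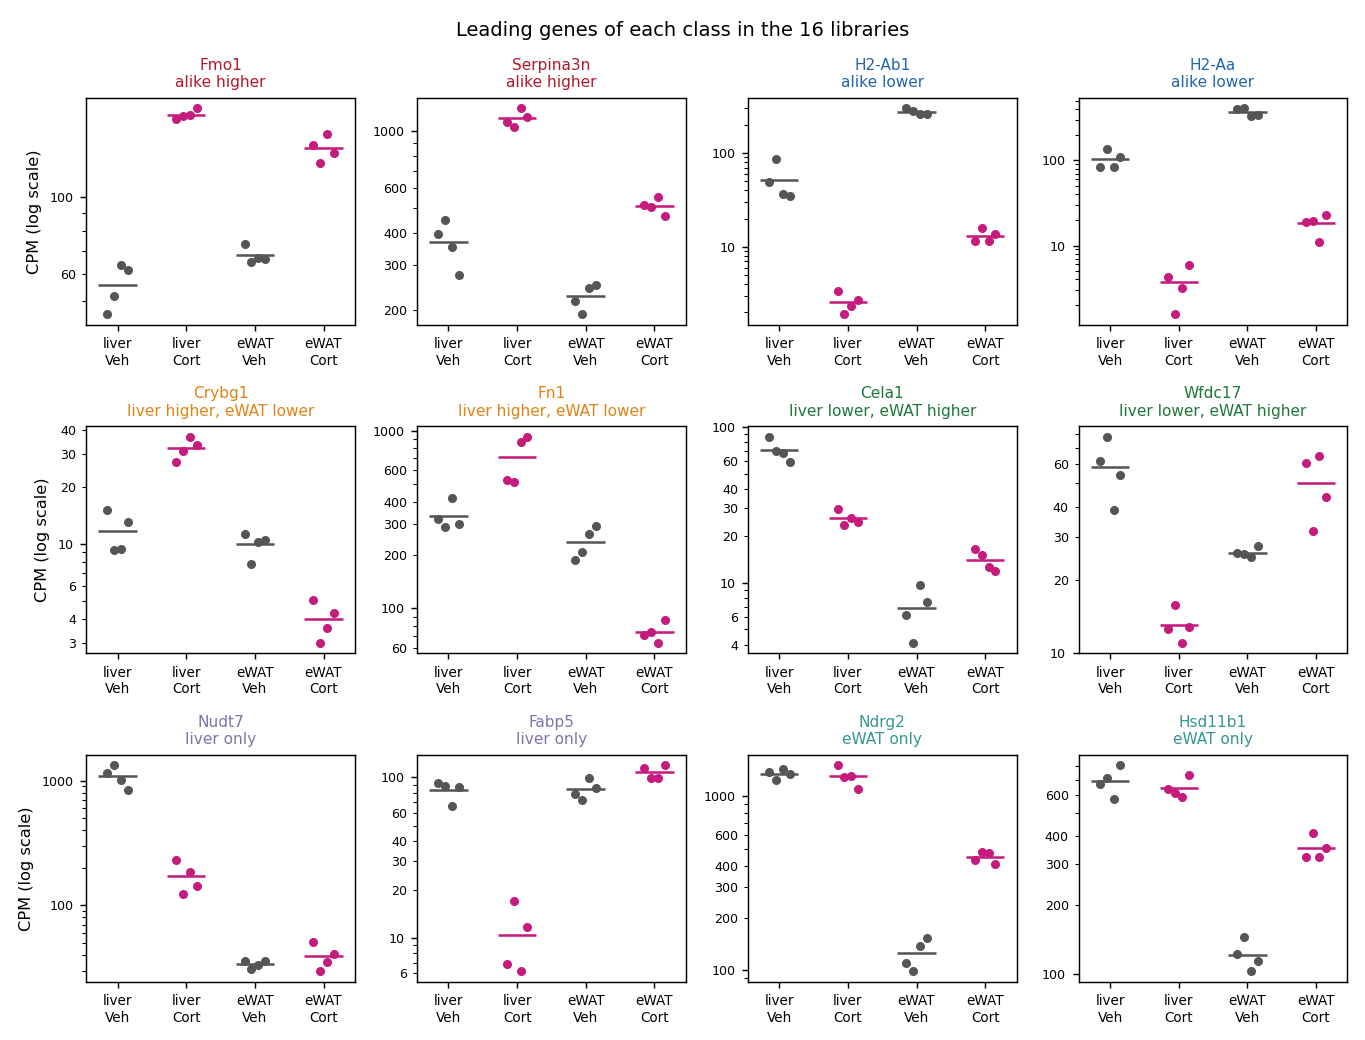
Level (CPM, log scale) of the 2 leading genes of each class in the 16 libraries, 1 point per library, with the mean as a bar. Veh is grey and cort is magenta. As the rule of naming required, veh and cort points do not overlap in the tissues where a gene was called. Examples are both tissues for H2-Aa and liver, but not eWAT, for Fabp5.

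Genes that rose in liver and fell in eWAT included fibronectin and other components of the extracellular matrix. Fn1 (ENSMUSG00000026193, chromosome 1 from 71585520 to 71653200), fibronectin, which hepatocytes secrete into plasma and stromal cells lay down in tissue, was at 317, 287, 417 and 299 CPM in veh liver and 531, 515, 867 and 927 CPM in cort liver. In eWAT it was at 187, 208, 262 and 293 CPM with veh and 70.9, 73.5, 63.9 and 86.4 CPM with cort. Every cort liver library was above every veh liver library, and every cort eWAT library was below every veh eWAT library. The log2 fold change was 1.11 (SE 0.19, edgeR quasi-likelihood adjusted p = 4.6e-04) in liver and -1.69 (SE 0.19, edgeR quasi-likelihood adjusted p = 4.4e-06) in eWAT, and the responses differed by 2.79 (SE 0.27, edgeR quasi-likelihood adjusted p = 1.4e-06). The 4 other leading genes of this direction were not matrix genes. Crybg1 (ENSMUSG00000019866, chromosome 10 from 43950636 to 44148853) rose from 11.7 ± 2.86 CPM (SD, n = 4) to 32.1 ± 4.08 CPM (SD, n = 4) in liver and fell from 9.95 ± 1.49 CPM (SD, n = 4) to 3.97 ± 0.895 CPM (SD, n = 4) in eWAT. Pcsk6 (ENSMUSG00000030513, chromosome 7 from 65861734 to 66050386), a protease that processes secreted precursor proteins, rose by 0.80 (SE 0.15) and fell in eWAT with a log2 fold change of -1.30 (SE 0.15). Slco2b1, a transporter of organic anions, had log2 fold changes of 0.78 (SE 0.15) in liver and -0.94 (SE 0.15) in eWAT. F11r, a junctional adhesion molecule, was at 1.13 (SE 0.15) and -0.71 (SE 0.16) on the same scale. All 5 had a called difference. As the rule of naming required, they had no overlap between veh and cort libraries in either tissue, which was so in 30 of the 43 genes of this direction.

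Over the list of extracellular matrix genes, 18 of 27 measured members fell in eWAT and 0 rose, while in liver 6 rose and 0 fell. The difference was called in 17 of the 27, all more positive in liver, 5 of them called in opposite directions in the 2 tissues. Over all genes, 5.27% fell in eWAT, 7.07% rose in liver and 0.40% did both. A called difference more positive in liver was found in 4.76%. The median log2 fold change of the list was 0.67 in liver and -1.17 in eWAT, and its median difference was 1.45, against 0.00 over all genes. Col1a1, the main chain of type I collagen, was at 6.74, 5.53, 7.17 and 4.56 CPM in veh liver and 8.63, 31.1, 12.3 and 31.5 CPM in cort liver. In eWAT it was at 209, 214, 410.0 and 268 CPM with veh and 96.5, 88, 70.3 and 123 CPM with cort. The cort liver libraries were uneven, 2 of them close to the veh range and 2 well above it. Col1a1 had a log2 fold change of 1.80 (SE 0.42) in liver and -1.54 (SE 0.36) in eWAT, with a difference of 3.34 (SE 0.55, edgeR quasi-likelihood adjusted p = 0.0022). Col14a1, a collagen of fibril surfaces, showed the change of eWAT alone, with -2.64 (SE 0.26) there and -0.02 (SE 0.25) in liver. Lum, lumican, a proteoglycan of collagen fibrils, had -1.77 (SE 0.25) in eWAT and 0.71 (SE 0.26) in liver. Dcn, decorin, differed least among the called members, by 0.65 (SE 0.19), and this call was absent from 10 of the 16 refits with 1 library removed (edgeR quasi-likelihood adjusted p up to 0.093, without eWAT veh replicate 1). The type IV collagen chains of basement membranes, Col4a1 and Col4a2, were called in neither tissue, with 0.74 and 0.66 in liver and 0.33 and 0.64 in eWAT.

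The liver counts of matrix genes rested on single libraries. The number that rose in liver was 3 without liver veh replicate 4, liver cort replicate 2 or liver cort replicate 4, and 13 without liver cort replicate 1. The number called in opposite directions lay between 2, without the first 3 of these, and 10, without liver cort replicate 1. The number of called differences was 11 without liver veh replicate 1. In eWAT the count of members that fell was between 13, without eWAT veh replicate 3, and 19. Markers of adipose stromal cells, the matrix-producing cells of fat, summed to 1646 to 2296 CPM in veh and 1177 to 1440.2 CPM in cort eWAT, and to 452 to 618 CPM in veh and 516 to 668 CPM in cort liver. All 5 of these markers were detected in each group, and Dcn belongs to both lists. In liver, bile duct markers summed to 38.7 to 57.4 CPM in veh and 64.5 to 89.2 CPM in cort, and mesothelial markers to 2.47 to 4.24 and 5.35 to 6.42 CPM, neither with overlap. The part of these cells in the change of matrix genes was not tested.

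**Figure D3:**
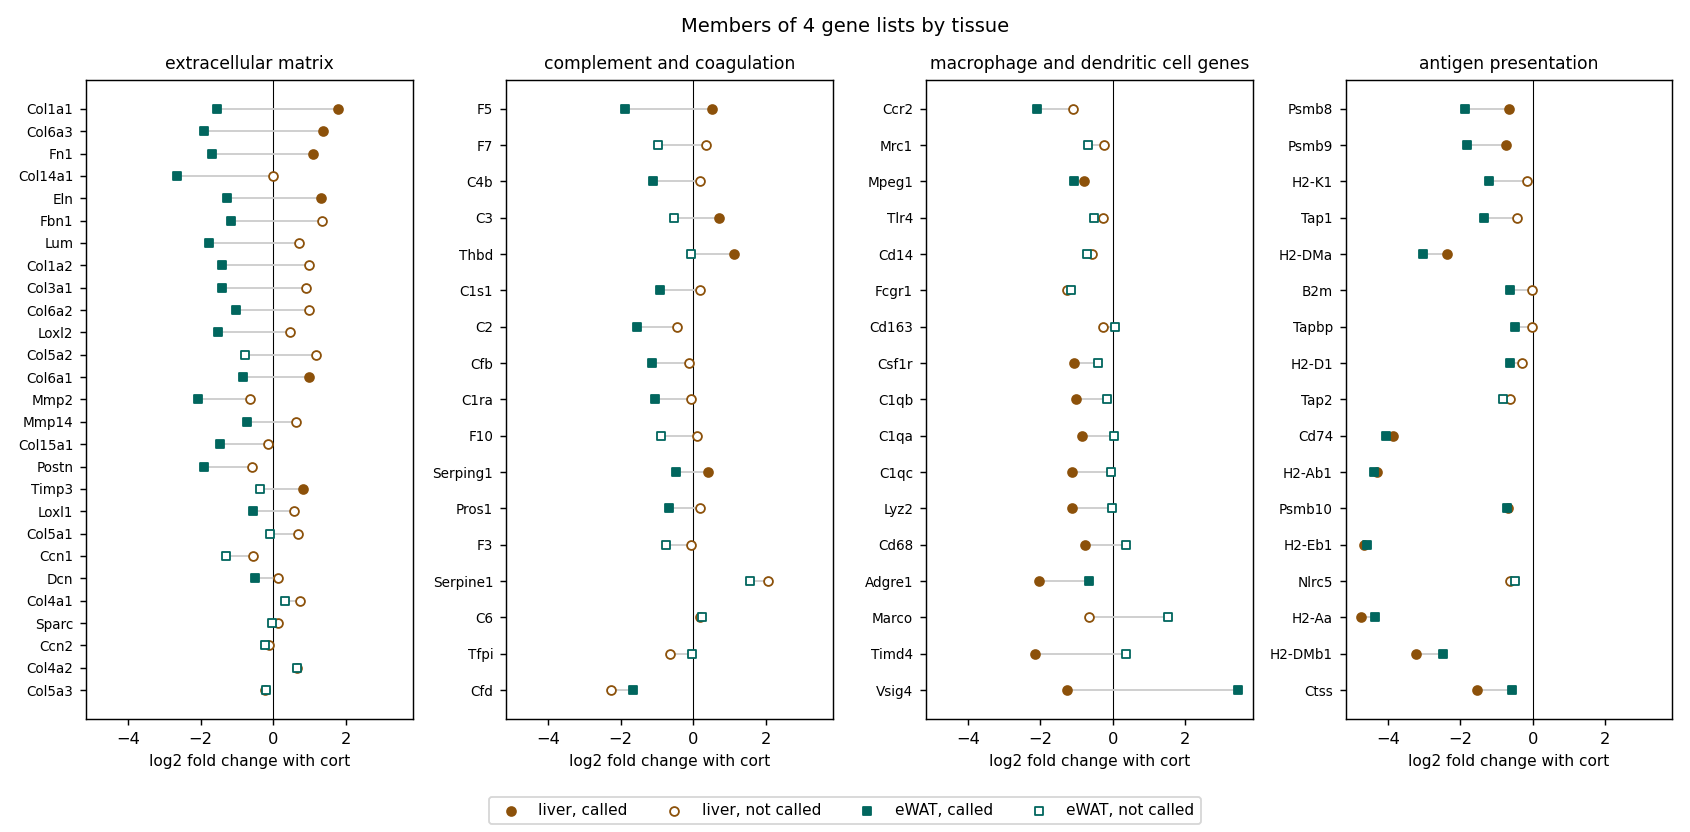
Log2 fold change with cort of the measured members of 4 gene lists in liver (circles) and eWAT (squares), 1 row per gene, joined by a grey line. Filled symbols passed the test and open ones did not. Matrix genes spread to both sides of 0, with 18 of 27 called lower in eWAT, complement and coagulation genes lie to the left in eWAT, macrophage genes to the left in liver, and the antigen presentation genes to the left in both.

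Complement and coagulation factors, plasma proteins made mostly by hepatocytes but also in adipose tissue, fell in eWAT and mostly did not pass the test in liver. Of the 17 measured members reported here, 9 fell in eWAT and 4 rose in liver, and the difference was called more positive in liver in 9. Over all genes, 5.27% fell in eWAT, 7.07% rose in liver and 4.76% had a called difference more positive in liver. The medians of the list were 0.20 in liver and -0.87 in eWAT. C3, the central component, was at 1616 ± 182 CPM (SD, n = 4) in veh and 2674 ± 651 CPM (SD, n = 4) in cort liver (0.73, SE 0.18 on the log2 scale), with -0.52 (SE 0.18) in eWAT. C4b, which acts upstream of it, fell in eWAT with a log2 fold change of -1.09 (SE 0.13), with 0.20 (SE 0.13) in liver. F5, coagulation factor V, fell in eWAT (-1.88, SE 0.21) and rose in liver (0.53, SE 0.16), the latter a call that was absent from 5 of the 16 refits with 1 library removed (edgeR quasi-likelihood adjusted p up to 0.15, without liver cort replicate 4). The number that rose in liver was 1 without liver veh replicate 1, 2 or 4 or liver cort replicate 3 or 4.

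The widest gap between the tissues among genes that moved in opposite directions was that of Sult1e1 (ENSMUSG00000029272, chromosome 5 from 87575969 to 87591594), estrogen sulfotransferase, which was chosen after its values were seen. It was at 12.9, 4.36, 6.33 and 1.29 CPM in veh liver and 893, 768, 1018 and 531 CPM in cort liver. In eWAT the values were 30.1, 44.7, 19.9 and 24.7 CPM with veh and 9.95, 13.3, 9.83 and 11.4 CPM with cort. The log2 fold change was 6.99 (SE 0.51, edgeR quasi-likelihood adjusted p = 1.3e-06) in liver and -1.42 (SE 0.41) in eWAT, and the difference was 8.41 (SE 0.65, edgeR quasi-likelihood adjusted p = 4.7e-06). The decrease in eWAT was absent from 10 of the 16 refits with 1 library removed (edgeR quasi-likelihood adjusted p up to 0.11, without eWAT veh replicate 2). Cyp2b10, a cytochrome P450 of drug metabolism that was likewise chosen after its values were seen, rose in both tissues, from 2.73 ± 2.49 CPM (SD, n = 4) to 497 ± 136 CPM (SD, n = 4) in liver and from 1.1 ± 0.162 CPM (SD, n = 4) to 4.66 ± 2.67 CPM (SD, n = 4) in eWAT, and the eWAT call was absent from 6 of the 16 refits with 1 library removed (edgeR quasi-likelihood adjusted p up to 0.085, without eWAT veh replicate 3).

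The 26 genes that fell in liver and rose in eWAT were led by Cela1, Wfdc17, Tuba4a, Gm49342 and Papss2. Wfdc17 (ENSMUSG00000069792, chromosome 11 from 83703991 to 83706268), a secreted protein of the whey acidic protein family, was at 61.9, 77.8, 38.7 and 54.3 CPM in veh liver and 12.5, 15.8, 11 and 12.8 CPM in cort liver. In eWAT it was at 25.8, 25.5, 25 and 27.5 CPM with veh and 60.6, 31.9, 64.8 and 44 CPM with cort. Veh and cort thus did not overlap in either tissue, as the rule of naming required and as was so in 20 of the 26 genes. The responses, -2.16 (SE 0.21, edgeR quasi-likelihood adjusted p = 4.3e-07) in liver and 0.96 (SE 0.20, edgeR quasi-likelihood adjusted p = 0.0029) in eWAT, differed by -3.11 (SE 0.29). Cela1 (ENSMUSG00000023031, chromosome 15 from 100674421 to 100687921), an elastase, fell from 70.9 ± 11.2 CPM (SD, n = 4) to 25.9 ± 2.8 CPM (SD, n = 4) in liver and rose from 6.88 ± 2.36 CPM (SD, n = 4) to 14 ± 2.13 CPM (SD, n = 4) in eWAT. Tuba4a, an alpha tubulin, fell with a log2 fold change of -0.82 (SE 0.17) in liver, where it was at 350.1 ± 22.8 CPM (SD, n = 4) with veh, and rose by 0.82 (SE 0.18) in eWAT. Papss2, which makes the activated sulfate that sulfotransferases use, fell in liver with a log2 fold change of -0.58 (SE 0.13) and rose in eWAT by 0.76 (SE 0.13). Gm49342 (ENSMUSG00000021871, chromosome 14 from 50944517 to 50963136) overlaps Pnp and Pnp2 on the same strand, so its reads cannot be told apart from theirs, and it had log2 fold changes of -0.74 (SE 0.16) and 0.71 (SE 0.16). Chosen after its values were seen, Cth (ENSMUSG00000028179, chromosome 3 from 157894248 to 157925077), which makes cysteine from cystathionine, was at 521 ± 137 CPM (SD, n = 4) in veh and 282 ± 75.4 CPM (SD, n = 4) in cort liver, and at 3.66 ± 0.687 CPM (SD, n = 4) in veh and 7.5 ± 1.49 CPM (SD, n = 4) in cort eWAT, with log2 fold changes of -0.88 (SE 0.20) and 1.03 (SE 0.24).

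Macrophage genes fell in liver, and in eWAT most did not pass the test. Of 17 measured genes of macrophages and dendritic cells, 10 fell and 0 rose in liver, while 3 fell and 1 rose in eWAT. All 7 called differences were more negative in liver. Over all genes, 5.68% fell in liver, 5.27% fell and 5.04% rose in eWAT, and 3.39% had a called difference more negative in liver. The median log2 fold change of the list was -1.03 in liver and -0.17 in eWAT, against -0.00 and -0.01 over all genes. Timd4, a receptor for dying cells on resident macrophages, was at 6.03 ± 1.84 CPM (SD, n = 4) in veh and 1.32 ± 0.70 CPM (SD, n = 4) in cort liver (-2.16, SE 0.40), with 0.36 (SE 0.36) in eWAT. Adgre1, which encodes the marker F4/80, fell with log2 fold changes of -2.05 (SE 0.25) in liver and -0.67 (SE 0.21) in eWAT, a decrease in eWAT that was absent from 9 of the 16 refits with 1 library removed (edgeR quasi-likelihood adjusted p up to 0.13, without eWAT cort replicate 3). C1qb, a chain of the complement trigger C1q that macrophages make, fell in liver with a log2 fold change of -1.03 (SE 0.14), with -0.17 (SE 0.13) in eWAT. Vsig4 (ENSMUSG00000044206, chromosome X from 96247203 to 96293438), the complement receptor of Kupffer cells, went in opposite directions. It was at 69.8, 62.4, 41.9 and 57.5 CPM in veh and 22.7, 23.4, 22.8 and 27.4 CPM in cort liver, and at 0, 0.942, 0.911 and 1.18 CPM in veh and 10.9, 3.78, 8.57 and 9.37 CPM in cort eWAT, where 1 veh library had no read. The difference was -4.71 (SE 0.60, edgeR quasi-likelihood adjusted p = 1.8e-04), and the liver call was absent from 7 of the 16 refits with 1 library removed (edgeR quasi-likelihood adjusted p up to 0.086, without liver veh replicate 1). Cd5l (ENSMUSG00000015854, chromosome 3 from 87357881 to 87371073), a secreted protein of macrophages that was chosen after its values were seen, had the same pattern, with -1.67 (SE 0.21) in liver and 1.59 (SE 0.33) in eWAT.

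The number of these genes that fell in liver was 6 without liver veh replicate 2, liver cort replicate 1 or liver cort replicate 3, and the number that fell in eWAT was 1 without eWAT veh replicate 3, eWAT cort replicate 1 or eWAT cort replicate 3. A list of 9 macrophage markers summed to 409 to 537 CPM in veh and 188 to 266 CPM in cort liver, which did not overlap, and to 509 to 605 CPM in veh and 433 to 542 CPM in cort eWAT. Clec4f, a marker of Kupffer cells, was at 0 in all eWAT libraries. The marker list shares members with the list of macrophage genes, and the part of the number of macrophages was not tested.

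The 5 leading genes called in liver and not in eWAT were Nudt7, Fabp5, Crot, Serinc3 and Chpt1. Nudt7 (ENSMUSG00000031767, chromosome 8 from 114133557 to 114154739), a peroxisomal hydrolase of coenzyme A, was at 1158, 1333, 1019 and 841 CPM in veh liver and 232, 123, 185 and 143 CPM in cort liver, without overlap. In eWAT it was at 35.5, 31, 33.4 and 35.7 CPM with veh and 51, 29.5, 35.3 and 41.1 CPM with cort, which overlapped. Its log2 fold change was -2.67 (SE 0.19, edgeR quasi-likelihood adjusted p = 7.4e-09) in liver and 0.21 (SE 0.19) in eWAT, a difference of -2.88 (SE 0.27, edgeR quasi-likelihood adjusted p = 1.1e-06). Fabp5 (ENSMUSG00000027533, chromosome 3 from 10012548 to 10016607), a fatty acid binding protein, was at 83.5 ± 11.7 CPM (SD, n = 4) in veh liver and 84.1 ± 11.7 CPM (SD, n = 4) in veh eWAT. How these levels compare between the tissues depends on the TMM factors. With cort Fabp5 fell to 10.4 ± 4.97 CPM (SD, n = 4) in liver, and it was at 108 ± 10.4 CPM (SD, n = 4) in eWAT. Crot, which couples medium-chain fatty acids from peroxisomes to carnitine, fell in liver with a log2 fold change of -1.87 (SE 0.16), with 0.30 (SE 0.16) in eWAT. Serinc3 (ENSMUSG00000017707, chromosome 2 from 163623272 to 163645131), a membrane protein, rose from 332 ± 42.1 CPM (SD, n = 4) to 1077 ± 207 CPM (SD, n = 4) in liver, and its eWAT log2 fold change was -0.06 (SE 0.13) with an interval of -0.35 to 0.22. Chpt1, which completes the synthesis of phosphatidylcholine, rose in liver by 1.15 (SE 0.12), with -0.26 (SE 0.12) in eWAT, where veh and cort libraries did not overlap although the gene was not called. Of the lipid lists, Cd36, the fatty acid translocase, was at 28.2, 23.3, 41.5 and 53.8 CPM in veh and 132, 198, 135 and 161 CPM in cort liver, and at 1382 to 1673 CPM in veh and 1394 to 1545 CPM in cort eWAT. Cd36 rose by 2.09 (SE 0.20) in liver, and its eWAT value was -0.03 (SE 0.18).

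Among genes called in eWAT and not in liver was Hsd11b1 (ENSMUSG00000016194, chromosome 1 from 193221634 to 193264075), the enzyme that regenerates active glucocorticoid. It was at 122, 145, 102 and 113 CPM in veh eWAT and 321, 410.5, 322 and 354 CPM in cort eWAT, so that every cort library lay above every veh library. In liver it was at 668, 713, 577 and 810.1 CPM with veh and 639, 614, 591 and 736 CPM with cort, which overlapped. The log2 fold change was 1.54 (SE 0.14, edgeR quasi-likelihood adjusted p = 5.9e-08) in eWAT and -0.10 (SE 0.14) in liver, with a difference of -1.65 (SE 0.19, edgeR quasi-likelihood adjusted p = 7.0e-06). Ndrg2 (ENSMUSG00000004558, chromosome 14 from 51905271 to 51914158), a protein of the N-myc downstream regulated family, rose from 125 ± 25.7 CPM (SD, n = 4) to 446 ± 33 CPM (SD, n = 4) in eWAT, and in liver it was at 1354 ± 83.8 CPM (SD, n = 4) with veh and 1307 ± 168 CPM (SD, n = 4) with cort. Tmem176a, a membrane protein, rose by 1.64 (SE 0.15) in eWAT, with -0.09 (SE 0.15) in liver. It overlaps Tmem176b on the other strand, and whether strand was used in counting is not given in the sources used here. Dctn3, a subunit of dynactin, rose by 1.45 (SE 0.14) in eWAT, with -0.10 (SE 0.15) in liver. St3gal4 (ENSMUSG00000032038, chromosome 9 from 35046576 to 35119268), a sialyltransferase, was the 1 leading gene of this class that fell, from 5.57 ± 0.84 CPM (SD, n = 4) to 1.28 ± 0.394 CPM (SD, n = 4), and its liver value was 0.15 (SE 0.18).

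The insulin-like growth factor (IGF) and growth hormone axis, in which the liver makes most of the circulating IGF, responded in different genes in the 2 tissues. Of 15 measured members, 3 rose and 3 fell in liver, 2 rose and 3 fell in eWAT, 1 moved alike, and 6 differences were called, 2 more positive and 4 more negative in liver. The shares over all genes were 7.07% higher and 5.68% lower in liver, 5.04% higher and 5.27% lower in eWAT, and 8.15% for the difference. Igf1, the growth factor itself, was at 332, 361, 311 and 235 CPM in veh and 126, 80.6, 132 and 91 CPM in cort eWAT, and at 1381 to 1744 CPM in veh and 1085 to 1509.6 CPM in cort liver. It fell in eWAT with a log2 fold change of -1.53 (SE 0.17), with -0.22 (SE 0.16) in liver and a called difference of 1.31 (SE 0.23). Among the binding proteins that carry it, Igfbp2 fell from 309 ± 58.4 CPM (SD, n = 4) to 26.2 ± 4.46 CPM (SD, n = 4) in liver (-3.56, SE 0.30), with -0.95 (SE 0.41) in eWAT at a low level. Igfbp3 rose in eWAT by 1.61 (SE 0.22), with -0.31 (SE 0.23) in liver, and Igfbp4 rose in both, by 0.57 (SE 0.15) in liver and 0.61 (SE 0.15) in eWAT. Ghr, the growth hormone receptor, and Socs2, its feedback inhibitor, fell in liver with log2 fold changes of -0.87 (SE 0.13) and -2.13 (SE 0.29), with 0.30 (SE 0.13) and -0.77 (SE 0.28) in eWAT. The differences of Ghr and Socs2 were called, that of Socs2 being absent from 12 of the 16 refits with 1 library removed (edgeR quasi-likelihood adjusted p up to 0.078, without liver cort replicate 1). Fgf21, another hormone of liver and fat, had 30 to 65 reads in veh and 33 to 98 in cort liver libraries but 0 to 11 reads in veh and 0 to 4 in cort eWAT libraries, too few for a response in eWAT to be measured.

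Some genes of glucose metabolism rose in both tissues. Over all genes, 7.07% rose and 5.68% fell in liver, 5.04% rose and 5.27% fell in eWAT, and 1.17% rose in both. Of 19 glycolysis genes, 4 rose and 1 fell in liver, 4 rose in eWAT, and 3 rose in both, with medians of 0.36 and 0.40. Aldoa, aldolase, rose by 0.72 (SE 0.13) in liver and 0.91 (SE 0.12) in eWAT, and Pfkl, a phosphofructokinase, by 0.93 (SE 0.15) and 0.79 (SE 0.14). Gpi1, glucose-6-phosphate isomerase, rose in both, more in liver (1.71, SE 0.15) than in eWAT (0.59, SE 0.15), a called difference. Of 16 gluconeogenesis genes, 5 rose and 1 fell in liver and 5 rose in eWAT, the latter 1 without eWAT veh replicate 3. Pcx, pyruvate carboxylase, rose in both, from 97.6 ± 14.2 CPM (SD, n = 4) to 232 ± 24.3 CPM (SD, n = 4) in liver and from 242 ± 34 CPM (SD, n = 4) to 344 ± 21.8 CPM (SD, n = 4) in eWAT, by more in liver (0.74, SE 0.18), and its eWAT call was absent from 1 of the 16 refits with 1 library removed (edgeR quasi-likelihood adjusted p up to 0.053, without eWAT veh replicate 3). Pck1, the enzyme that draws on oxaloacetate, was called in neither, with 0.09 (SE 0.19) in liver and -0.32 (SE 0.19) in eWAT. Mpc1 and Mpc2, the subunits of the mitochondrial pyruvate carrier, both had called differences, of -0.92 (SE 0.22) and -0.74 (SE 0.16), with log2 fold changes of -0.64 and -0.27 in liver and 0.28 and 0.47 in eWAT.

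Lipid and amino acid lists held few called genes, with shares that in part lay near those over all genes, 7.07% higher and 5.68% lower in liver and 5.04% higher and 5.27% lower in eWAT. Of the 22 cholesterol synthesis genes reported here, 1 rose and 2 fell in liver and 1 rose in eWAT, with medians of 0.04 and 0.54. Of 22 genes of fatty acid and triglyceride synthesis, 4 rose and 1 fell in liver and 5 rose in eWAT, 0 in both, and the difference was called in 3. Acaca, which makes malonyl-CoA, rose in liver (1.39, SE 0.32), and Mlxipl, the carbohydrate-responsive transcription factor, rose in eWAT (1.07, SE 0.19) with -0.26 (SE 0.19) in liver. The liver count was 2 without liver veh replicate 1 or 2, and the eWAT count was 2 without eWAT veh replicate 2 or eWAT cort replicate 4. Of 20 genes of fatty acid oxidation, 2 fell in liver and 4 rose in eWAT, the latter 2 without eWAT veh replicate 3, eWAT cort replicate 1 or eWAT cort replicate 3. Acaa2, the last enzyme of mitochondrial oxidation, rose in eWAT by 0.68 (SE 0.13), with -0.19 (SE 0.13) in liver and a called difference of -0.87 (SE 0.18). Of 17 amino acid genes, 2 rose and 1 fell in liver and 4 rose in eWAT. Glud1, glutamate dehydrogenase, fell in liver with a log2 fold change of -0.43 (SE 0.12) and rose in eWAT by 0.75 (SE 0.12), with a called difference of -1.19 (SE 0.18), and its liver call was absent from 3 of the 16 refits with 1 library removed (edgeR quasi-likelihood adjusted p up to 0.059, without liver veh replicate 4). Prodh, which starts the breakdown of proline, rose in eWAT by 1.49 (SE 0.18), with 0.06 (SE 0.17) in liver, and Asl, of the urea cycle, rose in liver by 1.20 (SE 0.14), with -0.15 (SE 0.16) in eWAT.

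**Figure D4:**
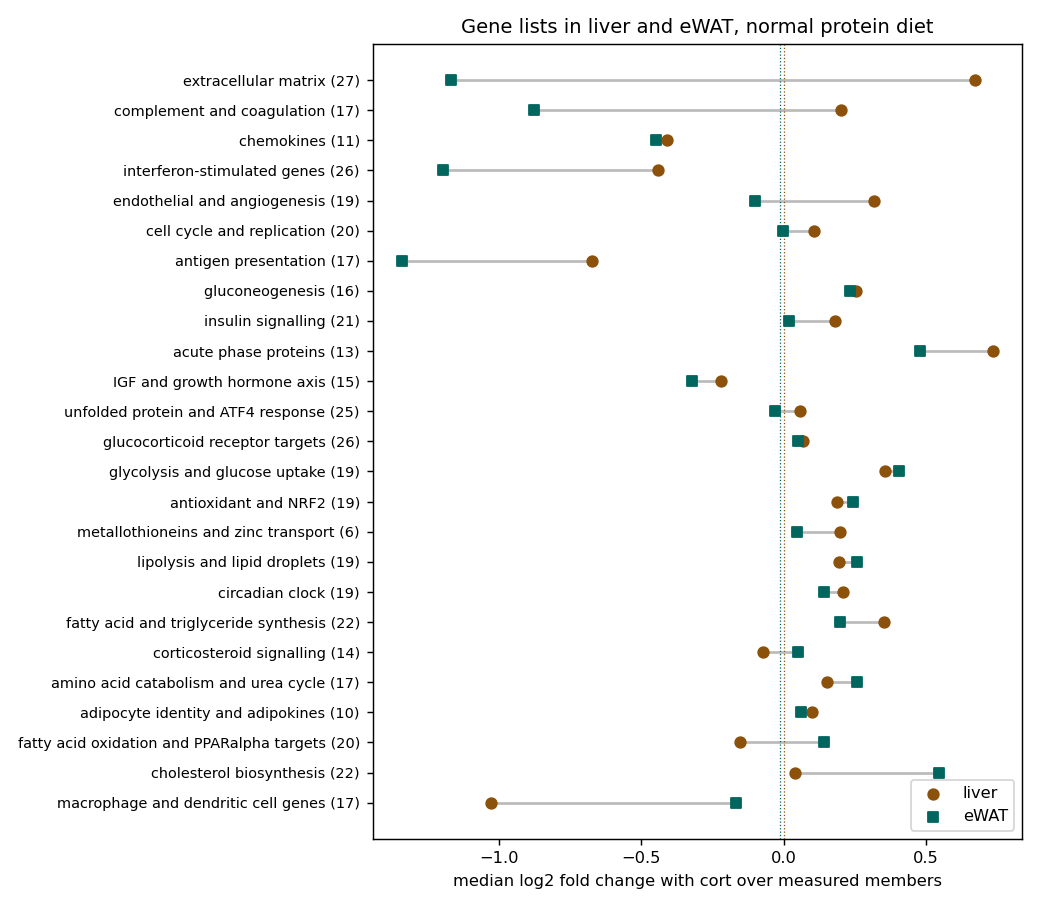
Median log2 fold change with cort over the measured members of each gene list with 6 or more (number measured in parentheses) in liver (brown circles) and eWAT (green squares), ordered by the median difference. Dotted lines are the medians of all 10625 genes. Among these lists the matrix genes have the most positive median difference (1.45, from -1.17 in eWAT to 0.67 in liver) and the macrophage genes the most negative (-0.86).

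The tissue differences were then looked for in the HPD libraries, which played no part in the definition of the classes. There 15 libraries were used, since the study left out 1 veh liver library as an outlier, and 370 genes (3.48%) were called for the tissue difference. Of the 866 genes called on the NPD, 744 (85.9%) had a difference of the same sign on the HPD, against 62.1% of all genes, and 168 (19.4%) were called with that sign, against 3.18% of all genes. Genes that rose in both tissues on the NPD had positive values in both on the HPD in 112 of 124 cases, and those that fell kept both signs in 98 of 123, where 44.4% of all genes kept both signs. Of the 26 genes lower in liver and higher in eWAT, 26 kept the sign of the difference and 24 kept both signs. Of the 43 in the other direction, 40 kept the sign of the difference and 25 kept both signs. Sult1e1 had log2 fold changes of 6.55 in liver and -1.85 in eWAT on the HPD, H2-Aa -3.56 and -3.08, Hsd11b1 0.45 and 1.37, and Nudt7 -2.63 and 0.36.

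The direction of whole lists was not the same on both diets. The matrix list had a median of -0.33 in liver on the HPD, with 0 members higher and 1 lower, and of -0.72 in eWAT, with 10 lower. Of its 17 called differences, 16 kept their sign on the HPD and 0 were called. Fn1 was at -0.02 in liver and -0.97 in eWAT on the HPD, and Col1a1 at -0.51 and -1.22. For interferon-stimulated genes the liver median was 0.71 on the HPD, with 24 of 26 members above 0, and -0.46 in eWAT. The macrophage list kept the sign of its 7 called differences, of which 1 was called again, with a liver median of -0.55. Of the 6 called differences of the IGF and growth hormone list, 6 kept their sign and 5 were called again. The difference between the diets was not tested here for any of these.

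**Figure D5:**
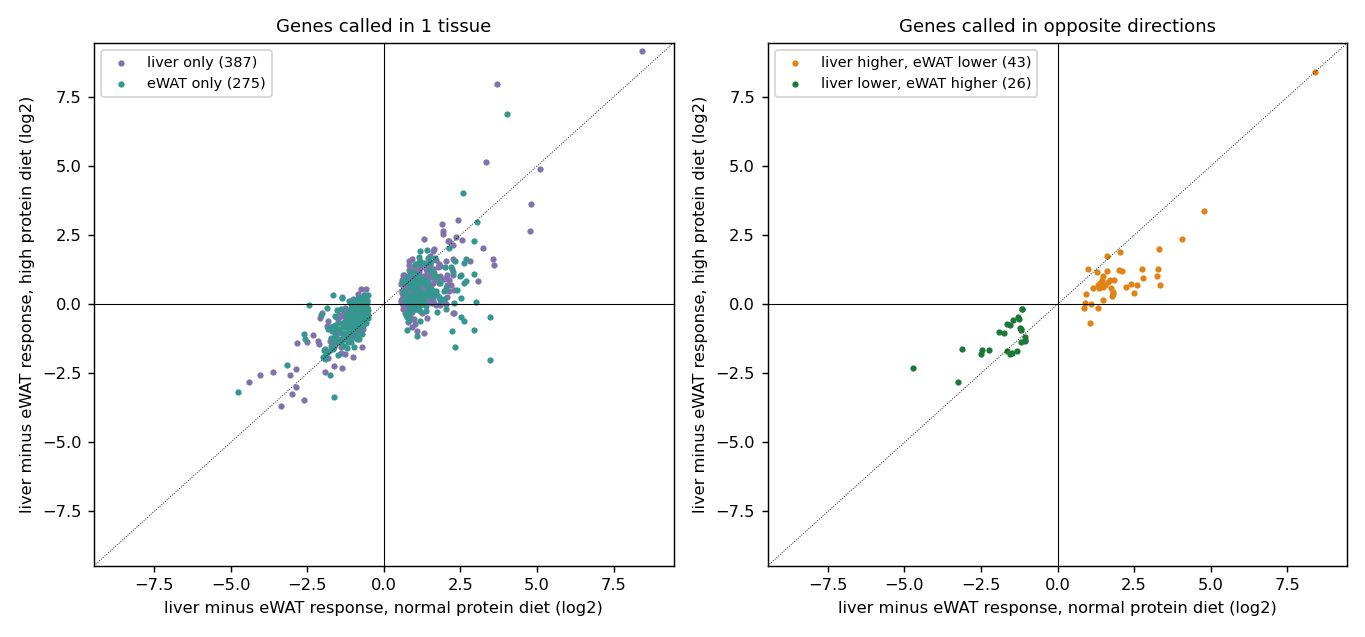
Difference of the cort response between liver and eWAT (log2) on the NPD (horizontal) and on the HPD (vertical) for genes called in 1 tissue on the NPD (left) and in opposite directions (right), 1 point per gene. The dotted line marks equal differences. Most points lie in the quadrants of equal sign, 344 of 387 for the genes of liver, 229 of 275 for those of eWAT, 40 of 43 and 26 of 26 for the genes in opposite directions.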

How the data were processed

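RNA of liver and eWAT was measured with QuantSeq libraries. The authors deposited raw counts, whole numbers of reads per Ensembl gene with 1 column per library and no normalization. The submitters' processing notes name GRCm38 (mm10), R 4.0.3 and limma, while the aligner and the counting program are not given in the sources used here. Groups came from the sample labels. Symbols and positions are from the GENCODE M21 annotation of GRCm38. Of the 30 genes named by rule, 17 overlap another annotated gene, 5 of them on the same strand.

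Counts of the 16 NPD libraries were fitted together, with 1 mean per group and no covariate, in R 4.3.3 with edgeR 4.0.16, limma 3.58.1 and statmod 1.5.0. Genes had to pass filterByExpr (minimum count 10, minimum total 15) in each tissue. Libraries were scaled with TMM factors (0.670 to 0.785 in liver, 1.27 to 1.39 in eWAT), and genes were tested with the robust quasi-likelihood test and called at a Benjamini-Hochberg adjusted p under 0.05. Each SE is the absolute log2 fold change divided by the square root of the F value of this test. Intervals are 95%, made from that SE with 12 residual degrees of freedom. The p-values come from the test itself, so intervals need not match them exactly. A class of genes called in 1 tissue also required a called difference. With 4 samples a group, the spread between samples set the precision more than depth did: pairs of replicates gave chi-squared values of 12.5 to 49.9 a gene, where counting noise gives about 1, and 0 of 24 pairs were identical. Same-numbered liver and eWAT libraries deviated together with correlations of -0.01 to 0.10. Since deviations of different tissues need not be shared within a mouse, these values cannot decide whether the numbers pair the samples. The main fit took no pairing into account.

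Genes were named by a rule: per class, up to 5 with the smallest p (for genes called in both tissues the larger of both, otherwise that of the difference), with no overlap of veh and cort where called and a level in each tissue of at least 5% of that in the other, besides Nr3c1, Hsd11b1, Fgf21 and members of 26 lists. The classes, lists and rules were chosen with earlier results of these data known. The lists hold textbook members and got no test of their own, and 3 genes were taken out of them after the analysis and are not reported here. HPD libraries were fitted apart, without the veh liver replicate 4 that the study left out. Alternatives were DESeq2 1.42.0, limma voom, other scalings and filters, wider or separate fits, a replicate block, and each library left out. List counts without each library were added after the muscle RNA of liver cort replicate 3 was seen. Counts were simulated for these 10625 genes with the same relative spread between samples for every gene. In 1 tissue, 100 genes above a minimum mean count changed by 2 on the log2 scale. There edgeR's test of the difference recovered 99% with 3.88% of its calls false. DESeq2 recovered 99% with 16.8% false, and limma voom 98% with 4.85% false. Real genes differ in spread, and the median absolute change was 0.87 in liver for genes called in liver only and 0.92 in eWAT for those called in eWAT only. The simulated shares therefore do not carry over to these data.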

Additional observations from a re-analysis of the deposited data

Results flagged for a closer look

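Responses that differed between liver and eWAT were found in 866 genes by edgeR's quasi-likelihood test of the difference, among them 22 of the genes named by rule. The differences that follow are the log2 response of liver minus that of eWAT. In the genes that rose in both tissues it was 0.61 for Fmo1 and -1.33 for Hp, so that Fmo1 responded more in liver and Hp more in eWAT. The genes that rose in liver and fell in eWAT differed by 2.77 (Crybg1), 2.79 (Fn1), 2.10 (Pcsk6), 1.72 (Slco2b1) and 1.84 (F11r). In the opposite direction the differences were -2.48 (Cela1), -3.11 (Wfdc17), -1.64 (Tuba4a), -1.45 (Gm49342) and -1.34 (Papss2). Of the genes called in liver alone, Nudt7 differed by -2.88, Fabp5 by -3.37, Crot by -2.17, Serinc3 by 1.76 and Chpt1 by 1.41. Of those called in eWAT alone, Ndrg2 differed by -1.89, Hsd11b1 by -1.65, Tmem176a by -1.73, St3gal4 by 2.26 and Dctn3 by -1.55.

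In 7 of the 124 groups of 4 libraries looked at, 1 library lay far from the rest, with its gap to the nearest library taking more than 0.829 of the range of the group (Dixon's critical value). Chance flags about 1 in 20 groups, which is near this number. Pcsk6 was low in eWAT veh replicate 3 (gap of 0.941 of the range) and high in liver veh replicate 3 (0.838). Chpt1 was high in liver cort replicate 1 (0.933), H2-DMb1 high in eWAT cort replicate 1 (0.884) and Papss2 low in liver cort replicate 4 (0.874). Dctn3 was low in eWAT veh replicate 3 (0.873) and Tmem176a low in eWAT veh replicate 2 (0.847). These genes, chosen for small p-values in the full set of libraries, kept their calls in every refit with 1 library removed.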

How the results depend on the processing

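Of the counts of genes called or placed in a class, all stayed within 1.5 times the value given under the alternatives run, apart from 2: 45 genes in opposite directions in place of 69 when all 8 groups of both diets shared a fit, and 181 genes called in eWAT alone in place of 275 without eWAT veh replicate 3. Without each library in turn, 936 to 1397 genes were called in liver, 798 to 1151 in eWAT and 667 to 857 for the difference, 183 to 247 moved alike, 47 to 69 moved in opposite directions, 276 to 401 were called in liver alone and 181 to 261 in eWAT alone. DESeq2 called 1096 differences, limma voom 718 and a table with no filter 696. Liver calls were 1623 with DESeq2 and 1083 with voom, and eWAT calls 1356 and 1549. With library totals and no factors, 65.8% of the called differences were more positive in liver, against 58.4%. A replicate block, although the labels do not say whether the numbers pair the samples, gave 837 differences, and a block of treatment and number gave 806. All 1958 values of the 70 results for genes named by rule kept their direction and side of the threshold under these alternatives. These genes had been chosen for small p-values and no overlap in the same libraries, so their stability says little about other genes. Some list members, not chosen so, lost calls when 1 library was removed, in up to 15 of 16 refits (the difference of Gbp7). On the HPD, 721 signs were kept and 113 genes called with all 16 libraries, and 753 and 170 without eWAT cort replicate 4. Genes with few counts in a tissue, such as Fgf21 in eWAT, could not be compared at this depth.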

Other observations

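The called genes of further lists are given here beside the shares over all genes of 7.07% higher and 5.68% lower in liver and 5.04% higher and 5.27% lower in eWAT. The unfolded protein and ATF4 list had 3 of 25 members higher and 2 lower in liver and 0 called in eWAT, counts near those shares. Asns, asparagine synthetase, was at 2.72, 0.873, 0.717 and 1.05 CPM in veh and 5.79, 2.5, 6.39 and 7.36 CPM in cort liver, a log2 fold change of 2.01 (SE 0.34), with -0.11 (SE 0.23) in eWAT and a called difference of 2.12 (SE 0.41). Hspa5, the main chaperone of the endoplasmic reticulum, was at -0.09 and -0.03, called in neither. Of 19 clock genes, 3 rose and 1 fell in liver and 0 were called in eWAT, and the difference was called in 1. Per3 rose in liver (1.17, SE 0.27), with -0.18 (SE 0.22) in eWAT and a called difference. Arntl, the partner of CLOCK, fell in liver (-1.18, SE 0.33), with -0.41 (SE 0.31) in eWAT and no called difference, and its liver call was absent from 3 of the 16 refits with 1 library removed (edgeR quasi-likelihood adjusted p up to 0.12, without liver veh replicate 1). The time of day of tissue collection was not used here.

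Of 20 cell cycle genes, 3 fell in eWAT and 1 rose there, and 1 rose and 1 fell in liver. Cdk1, the mitotic kinase, was at 1.96, 5.48, 9.77 and 2.77 CPM in veh and 0.495, 0.213, 0.748 and 0.911 CPM in cort eWAT, a log2 fold change of -3.08 (SE 0.49) at a low level, with -0.39 (SE 0.45) in liver and a called difference of 2.69 (SE 0.66). Among 19 endothelial genes, 4 rose and 1 fell in liver and 1 fell in eWAT. Vwf, von Willebrand factor, rose in liver by 1.18 (SE 0.33), with -0.32 (SE 0.24) in eWAT, and its liver call was absent from 3 of the 16 refits with 1 library removed (edgeR quasi-likelihood adjusted p up to 0.076, without liver veh replicate 1), while its difference was absent from 3 of the 16 refits with 1 library removed (edgeR quasi-likelihood adjusted p up to 0.063, without liver veh replicate 1). Flt1, a receptor for vascular endothelial growth factor, rose in liver by 1.26 (SE 0.22), with -0.31 (SE 0.20) in eWAT. The number of endothelial genes that rose in liver was 2 without liver veh replicate 2 or liver cort replicate 4.

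Chemokines split by gene, with 2 of 11 lower in liver and 5 lower and 1 higher in eWAT. Ccl5, which attracts T cells, fell in both tissues, with log2 fold changes of -2.08 (SE 0.59) in liver and -3.37 (SE 0.49) in eWAT, and its liver call was absent from 4 of the 16 refits with 1 library removed (edgeR quasi-likelihood adjusted p up to 0.094, without liver veh replicate 2). Cxcl14 fell in eWAT from 2.99 ± 1.69 CPM (SD, n = 4) to 0.584 ± 0.305 CPM (SD, n = 4), with a value of 0.66 (SE 0.51) in liver and a called difference. Cxcl13, which attracts B cells, rose in eWAT (2.95), with -1.80 in liver and a called difference of -4.75. In the antioxidant list of 19 genes, 4 rose and 1 fell in liver, and 4 rose and 1 fell in eWAT. The number that rose in eWAT was 1 without eWAT veh replicate 4 or eWAT cort replicate 1. Gpx3, the plasma glutathione peroxidase, rose in liver from 6.65 ± 1.18 CPM (SD, n = 4) to 42.3 ± 7.65 CPM (SD, n = 4), with 0.29 (SE 0.21) in eWAT, while Hmox1, heme oxygenase, rose in both by 0.94 (SE 0.26) and 0.88 (SE 0.24). The liver and eWAT calls of Hmox1 were absent from 4 and 3 of the 16 refits with 1 library removed.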
